A study of Mus musculus with 2 samples.

Results

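Droplet barcodes that carried T cell and macrophage transcripts together were described in YUMMER1.7 tumors, a melanoma model in mice. The barcodes were chosen by their marker counts alone, and a barcode was taken when the UMIs of Cd3d, Cd3e and Cd3g, which encode the invariant chains of the T cell receptor complex, summed to at least 2 (the CD3 sum) and Csf1r, which encodes the receptor for macrophage colony stimulating factor, had at least 2 UMIs. A UMI, or unique molecular identifier, tags 1 captured RNA molecule, and a barcode marks the droplet it came from. These barcodes, called members here, numbered 1059 of 10100. WT contributed 409 of 4524 barcodes and the library labelled Siah2-/- contributed 650 of 5576. Hosts were C57BL/6 males of 8 weeks, either WT or without Siah2, a RING finger ubiquitin ligase, and their tumors, from 1 tumor line in both groups, were taken after 11 days. Tumors of a group were digested together, CD45+ cells were sorted and a smaller part of CD45- cells was mixed back in. Each genotype has 1 droplet library sequenced on its own lane, so genotype, tumor pool, library and lane cannot be told apart and no test between genotypes was possible. All intervals below are 95% intervals that cover counting error only.

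Macrophages take up dying cells, present antigen on MHC class II and exchange chemokines, costimulatory signals and checkpoint signals with T cells at close contact. Regulatory T cells (Tregs), marked by the transcription factor Foxp3, restrain effector T cells and sit close to antigen-presenting cells in many tissues. In droplet sequencing, a barcode with both programs can come from 2 cells that stick together, 2 cells that fall into a droplet by chance, a macrophage that has taken up a T cell, or RNA free in the suspension. These sources cannot be told apart in the counts used here.

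The WT library held 64885015 UMIs in its 4524 barcodes, with a median of 11425 per barcode, and the library labelled Siah2-/- held 59174401 in 5576, with a median of 8683. The libraries shared 34 barcode sequences, 3 of which were members in both. Siah2 had 87 UMIs in WT members and 88 in Siah2-/- members, or 12.7 and 8.58 counts per 1000000 UMIs (CPM). The counts are tags of transcript 3′ ends and no source used here gives the deleted stretch of Siah2, so these tags do not check the label.

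Members made up 9.04% of the WT barcodes (8.22 to 9.91) and 11.7% of the Siah2-/- barcodes (10.8 to 12.5). The CD3 sum of members ran from 2 to 110 in WT with a median of 14, and from 2 to 80 in Siah2-/- with a median of 10. Csf1r ran from 2 to 27 UMIs and from 2 to 23, with a median of 6 in both. The libraries differed most at the lower edge of the CD3 sum, where a sum of 2 to 4 was found in 64 WT members (15.6%) and in 266 Siah2-/- members (40.9%). Members with a CD3 sum of exactly 2 numbered 43 and 188, and those with exactly 2 Csf1r UMIs numbered 45 and 77. Just outside the rule lay 307 WT and 663 Siah2-/- barcodes with at least 2 Csf1r UMIs and a CD3 sum of 1, and 85 and 234 barcodes with a CD3 sum of at least 2 and 1 Csf1r UMI. The order of the genotypes depended on that edge. With a CD3 sum of at least 5, a limit chosen after the data were seen, members were 345 of 4524 WT barcodes (7.63%, 6.87 to 8.44) and 384 of 5576 Siah2-/- barcodes (6.89%, 6.24 to 7.58), and the log2 ratio of the share turned from 0.37 (0.19 to 0.55) to -0.15 (-0.36 to 0.07). Read from the macrophage side, 14.6% of WT and 14.8% of Siah2-/- barcodes with at least 2 Csf1r UMIs had a CD3 sum of at least 5. Read from the T cell side, 31.8% (29.0 to 34.7) and 18.0% (16.4 to 19.7) of barcodes with a CD3 sum of at least 5 had at least 2 Csf1r UMIs.

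**Figure D1:**
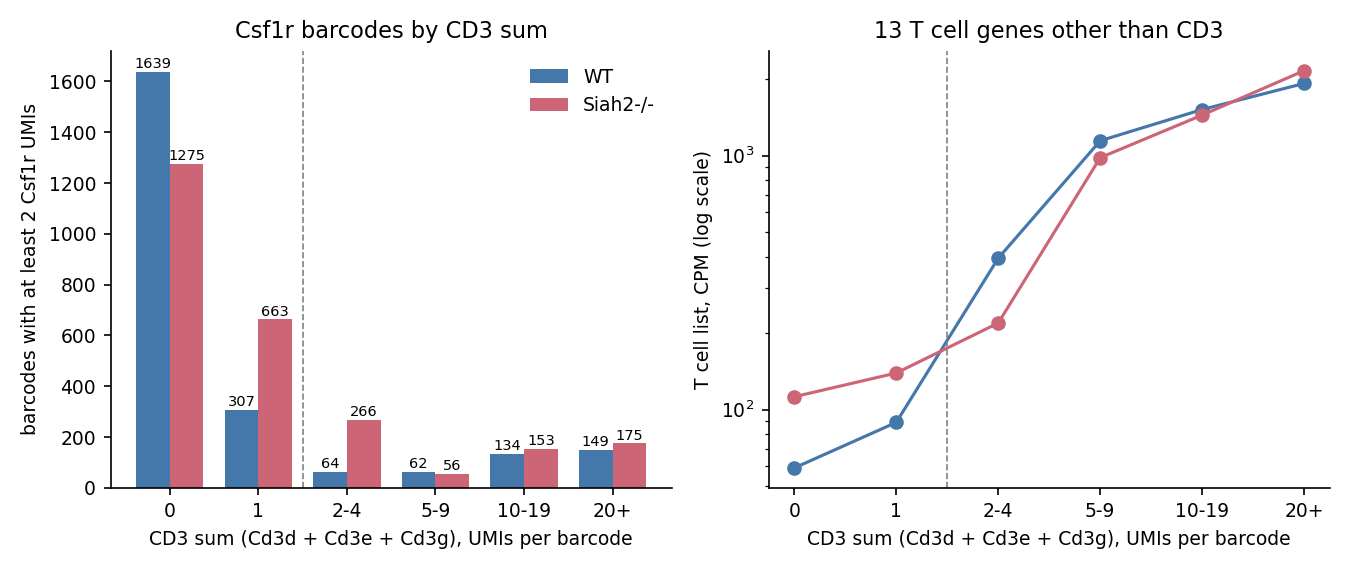
Left, bars give the number of barcodes with at least 2 Csf1r UMIs in each class of the CD3 sum for the WT and Siah2-/- libraries, and the dashed line marks the edge of the rule. Right, points give the summed CPM of 13 T cell genes other than CD3 on a log axis: it was 394 and 219 CPM at a CD3 sum of 2 to 4 and 1144 and 981 CPM at 5 to 9.

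T cell genes that the rule did not use separated the members at the edge from the rest. The T cell list (13 of its 16 genes were in the table, among them Cd2, Thy1, Lck and Lat) summed to 58.9 CPM in WT and 112 CPM in Siah2-/- barcodes with Csf1r and a CD3 sum of 0. It reached 394 and 219 CPM at a CD3 sum of 2 to 4, 1144 and 981 CPM at 5 to 9, 1519 and 1445 CPM at 10 to 19, and 1925 and 2161 CPM at 20 or more. At a CD3 sum of 2 to 4, 25 of 64 WT and 79 of 266 Siah2-/- members had no UMI of the T cell list. With a CD3 sum of at least 5, 0 of 345 and 3 of 384 had none. Droplets with under 100 UMIs, which hold mostly free RNA, carried the CD3 genes at 1205 CPM in WT and 1400 CPM in Siah2-/- and Csf1r at 160 and 175 CPM. The T cell list stood there at 1476 and 1880 CPM, against 1474 and 1204 CPM over all members, so its level alone does not separate members from free RNA. The background was also read in barcodes of cells that should lack the genes. Among stromal barcodes (Col1a1 and Col1a2 at 2 UMIs or more, no Ptprc), a CD3 sum of at least 2 was found in 43 of 683 WT (6.30%) and 36 of 109 Siah2-/- barcodes (33.0%), and a sum of at least 5 in 7 (1.02%) and 1 (0.917%). Their median depth was 23012 and 26061 UMIs, against 15415 and 14649 in members. Among NK barcodes (Ncr1 at 2 UMIs or more, CD3 sum of 0), at least 2 Csf1r UMIs were found in 28 of 318 WT (8.81%) and 18 of 302 Siah2-/- barcodes (5.96%), at median depths of 9621 and 8121 UMIs. Low CD3 sums were thus also present in barcodes chosen on stromal genes, more often in Siah2-/-. The T cell list was not measured in those barcodes. The main results are given below for all members and for those with a CD3 sum of at least 5.

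Summed over all members both programs were present, with the T cell program at the lower dose, but not every member held both. The T cell list had 0 UMIs in 25 WT and 82 Siah2-/- members. They were set against single T cells (CD3 sum of at least 2, no Csf1r, 727 WT and 1693 Siah2-/- barcodes) and single macrophages (Csf1r of at least 2, CD3 sum of 0, 1639 and 1275 barcodes). Summed over barcodes, the T cell list reached 49.2% (48.1 to 50.4) of its single T cell level in WT members and 28.2% (27.6 to 28.7) in Siah2-/- members. The macrophage list (16 genes led by Apoe, Lyz2, Fcer1g and Ctss) reached 74.4% (74.1 to 74.6) and 83.4% (83.1 to 83.7) of its single macrophage level. Both parts summed to 124% and 112%. For comparison, the T cell list stood at 1.97% and 2.63% of the T cell level in single macrophages, and the macrophage list at 3.53% and 5.60% of the macrophage level in single T cells. With a CD3 sum of at least 5 the T cell part was 55.5% and 40.8% and the macrophage part 73.2% and 73.5%. Here and for depth and states, this limit was put on members only, and single T cells kept a CD3 sum of at least 2. With a CD3 sum of 2 to 4 the T cell part was 13.2% (11.9 to 14.5) in WT and 5.12% (4.77 to 5.49) in Siah2-/-, and the macrophage part 81.0% and 101%. The Csf1r edge turned the order in WT, where the 122 members with a CD3 sum of at least 5 and 2 to 4 Csf1r UMIs had a T cell part of 66.5% and a macrophage part of 56.2%. In Siah2-/- the 150 such members had 49.0% and 60.8%. Barcode by barcode the T cell part ran from 0 to 214% with a median of 46.9% in WT and from 0 to 134% with a median of 21.4% in Siah2-/-. The macrophage part ran from 1.05% to 252% with a median of 70.6%, and from 2.27% to 217% with a median of 83.0%.

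Cd2 and Lck of the T cell list and Lyz2 of the macrophage list gave the same picture. Cd2, an adhesion receptor of T cells, stood at 301 CPM in WT members against 458 CPM in single T cells and 8.18 CPM in single macrophages. In Siah2-/- it stood at 219, 652 and 17.5 CPM. Lck, the kinase that starts T cell receptor signalling, stood at 216, 463 and 9.92 CPM in WT and at 164, 580 and 16.7 CPM in Siah2-/-. Lyz2, the lysozyme gene of myeloid cells, stood at 6919 CPM in WT members, 114 CPM in single T cells and 9826 CPM in single macrophages. Members thus lay between both single classes for each of these genes in WT, and for Cd2 and Lck in Siah2-/-.

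Members were deeper than either single class. Their UMIs ran from 6671 to 45691 in WT with a median of 15415 (14661 to 16358), and from 5046 to 38303 in Siah2-/- with a median of 14649 (13888 to 15244). Single T cells had a median of 9696 and 7341 UMIs and single macrophages 10216 and 8621. The member median was thus 1.59-fold and 2.0-fold that of single T cells, 1.51-fold and 1.70-fold that of single macrophages, and 0.774 (0.736 to 0.822) and 0.918 (0.870 to 0.955) of the sum of both medians. The distributions overlapped, since 5.62% of WT and 23.2% of Siah2-/- members lay above the 95th percentile of both single classes. Detected genes followed the same order, with medians of 3524 and 3374 in members, 2615 and 2157 in single T cells and 2638 and 2378 in single macrophages. With a CD3 sum of at least 5 the medians were 15641 and 16317 UMIs, or 0.786 (0.738 to 0.835) and 1.02 (0.944 to 1.08) of the sum. With a CD3 sum of 2 to 4 they were 14316 and 12421.5 UMIs. With barcodes chosen on counts thinned to 4000 UMIs, the ratio to the sum was 0.693 in WT and 0.807 in Siah2-/-. The mitochondrial share did not stand apart, with medians of 1.53% and 1.35% in members, 1.57% and 1.42% in single T cells and 1.37% and 1.21% in single macrophages. The authors removed barcodes at both ends of genes per cell, which takes out deep barcodes, so the upper end of the member distribution is cut short by that step.

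**Figure D2:**
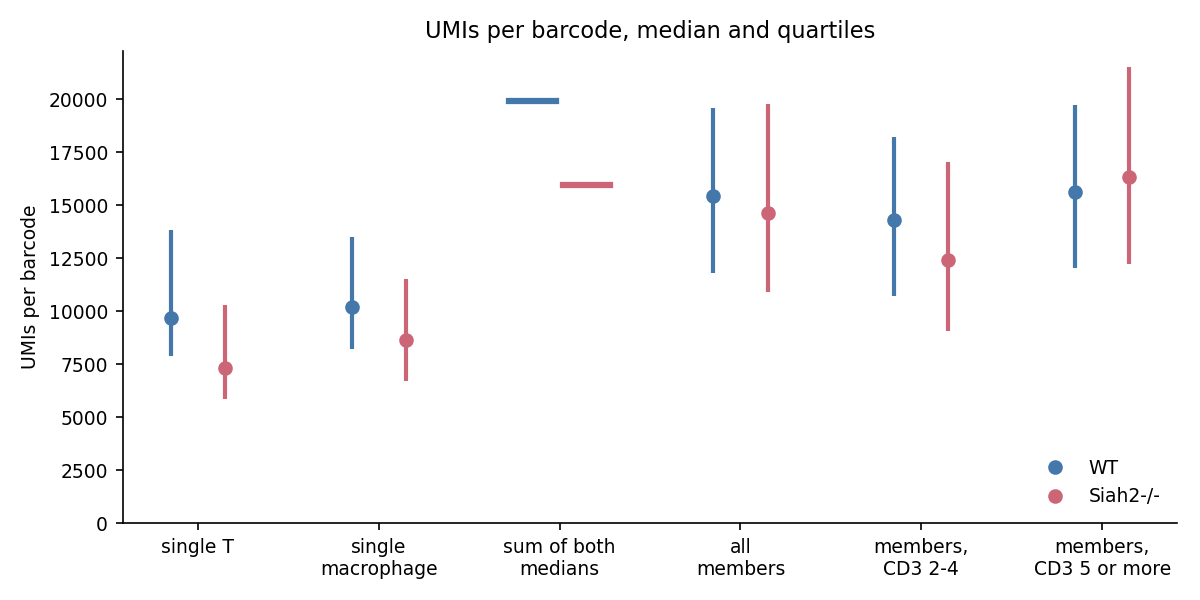
Points give the median UMIs per barcode and lines the quartiles for single T cells, single macrophages and members of each library, the horizontal bars give the sum of both single medians, and members are also split by CD3 sum. Member medians of 15415 and 14649 UMIs lay above both single classes and below the sums of 19912 and 15962 UMIs.

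Lymphoid calls in members were more often Treg-like and less often CD8-like than in single T cells in both libraries. Each barcode was given the lymphoid state whose gene profile fitted its UMIs best, at a posterior of at least 0.9. A state was called for 324 of 409 WT and 399 of 650 Siah2-/- members. Treg-like calls, which rest on 9 genes such as Foxp3, Il2ra, Ikzf2 and Tnfrsf4, made up 109 of 324 called WT members (33.6%, 28.5 to 39.1) against 86 of 671 single T cells (12.8%, 10.4 to 15.6). In Siah2-/- they made up 83 of 399 members (20.8%, 16.9 to 25.1) against 106 of 1554 single T cells (6.82%, 5.62 to 8.19). CD8-like calls, resting on Cd8a, Cd8b1, Gzmk, Nkg7, Prf1 and Lag3, made up 113 WT members (34.9%, 29.7 to 40.3) against 55.3% of single T cells (51.4 to 59.1), and 86 Siah2-/- members (21.6%, 17.6 to 25.9) against 40.2% (37.8 to 42.7). In both libraries and for both states, the intervals of members and single T cells did not overlap.

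CD4-like and Tcf7 Lef1 calls stood differently to single T cells in the 2 libraries, while the NK-like share of all members was the lower one in both, with overlapping intervals in Siah2-/-. CD4-like calls were 27 of the called WT members (8.33%) against 1.49% of single T cells, and 68 of the Siah2-/- members (17.0%) against 17.4%. A state led by Tcf7 and Lef1, transcription factors of naive and memory T cells, took 52 of 324 called WT members against 16.5% of single T cells, and 116 Siah2-/- members (29.1%) against 20.6%. NK-like calls were 23 (7.10%, 4.55 to 10.5) against 13.9% (11.3 to 16.7), and 46 (11.5%, 8.56 to 15.1) against 14.9% (13.2 to 16.8). Of the 46, 24 had a CD3 sum of 2 to 4, and with a sum of at least 5 the NK-like share was 5.63% in WT and 6.49% (4.11 to 9.66) in Siah2-/-. A γδ T cell state could not be called because no single T cell passed its seed gate with the genes in the table.

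The Treg-like share was checked against background, depth and the way of calling. Single macrophages, which have no CD3 UMI, were called Treg-like in 39 of 1639 WT (2.38%) and 38 of 1275 Siah2-/- barcodes (2.98%), against 26.7% and 12.8% of all members. This rate is held low by the choice of barcodes with a CD3 sum of 0. Of barcodes with at least 2 Csf1r UMIs and a CD3 sum of 1, a background added after the data were seen, 13 of 307 WT (4.23%) and 24 of 663 Siah2-/- (3.62%) were called Treg-like, or 38.2% (22.2 to 56.4) and 35.3% (24.1 to 47.8) of those with a lymphoid call. Few single macrophages had a lymphoid call, 107 and 85, and of those called the Treg-like share was 36.4% (27.4 to 46.3) and 44.7% (33.9 to 55.9), not below the 33.6% and 20.8% of called members. Called on counts thinned to 4000 UMIs per barcode, a setting added after the data were seen, Treg-like members were 36.0% in WT and 23.0% in Siah2-/-, and Treg-like single T cells 11.9% and 5.99%. Called by UMI gates on Foxp3, Cd8a, Cd8b1 and Cd4 in place of profiles, they were 28.1% against 14.1% and 19.3% against 8.04%. CD8-like calls by gates were 53.8% of WT members against 82.2% of single T cells, and 50.6% against 68.3%. Of members with a CD3 sum of 2 to 4, 22 of 64 WT and 60 of 266 Siah2-/- had a lymphoid call. Of these calls 11 (50.0%, 28.2 to 71.8) and 18 (30.0%, 18.85 to 43.2) were Treg-like. Called members with a CD3 sum of at least 5 were Treg-like in 32.5% and 19.2% (15.1 to 23.8).

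The levels of the genes behind these calls are given per UMI of the whole barcode. Macrophage RNA in a member lowers both the level and the thinned detection of T cell genes, so values below single T cells do not by themselves show fewer cells of a state. Foxp3 stood at 26.5 CPM in WT members, 20.7 CPM in single T cells and 1.21 CPM in single macrophages. In Siah2-/- it stood at 15.3, 19.1 and 1.13 CPM. In droplets with under 100 UMIs Foxp3 stood at 22.3 CPM in WT and 14.2 CPM in Siah2-/-, close to the members, and the part of free RNA in its level was not tested. At 4000 UMIs per barcode, Foxp3 was detected in 8.07% (5.62 to 11.1) of WT members, 7.02% (5.27 to 9.12) of single T cells and 0.244% of single macrophages, and in 5.38%, 4.49% and 0.392% in Siah2-/-, with overlapping intervals of members and single T cells. Without thinning it was detected in 20.5%, 10.7% and 1.22% in WT and in 9.38%, 5.85% and 1.10% in Siah2-/-. Tnfrsf4, which encodes the costimulatory receptor OX40, stood at 224 CPM in WT members against 255 CPM in single T cells, and at 158 against 288 CPM in Siah2-/-. Ctla4, an inhibitory receptor gene of Tregs and activated T cells, stood at 80.2 against 121 CPM in WT and at 63.2 against 229 CPM in Siah2-/-. Against the best-fitting mix of both single profiles, described further on, Ctla4 was at 2.03-fold (1.86 to 2.21) in WT and at 1.03-fold (0.95 to 1.11) in Siah2-/-. Cd8a, a chain of the CD8 coreceptor, was further below its single level, at 172 against 555 CPM and at 106 against 478 CPM. Cd4 stood at 30.3 CPM in WT members, above the 13.7 CPM of single T cells and 2.48 CPM of single macrophages, while in Siah2-/- it stood at 32.5, 97.9 and 2.58 CPM.

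On the macrophage side the members were richer in the Folr2 Fcrls state. A myeloid state was called for 395 WT and 624 Siah2-/- members. The Folr2 Fcrls state, named for the folate receptor and the Fc receptor-like gene that mark resident-type macrophages, took 123 WT members (31.1%, 26.6 to 36.0) against 17.6% of single macrophages (15.8 to 19.6), and 51 Siah2-/- members (8.17%, 6.15 to 10.6) against 2.07% (1.34 to 3.04). On thinned counts the shares were 32.1% against 18.2% and 9.70% against 2.19%. The Mgl2 MHC II state, marked by antigen presentation genes, was the most frequent in both libraries, with 177 WT members (44.8%, 39.8 to 49.9) against 56.2% of single macrophages (53.7 to 58.7) and 235 Siah2-/- members (37.7%, 33.8 to 41.6) against 41.6% (38.8 to 44.4).

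The Chil3 Vcan state, with genes of monocytes, took 26 members in WT (6.58%, 4.34 to 9.50) against 7.46% (6.22 to 8.87), and 41 in Siah2-/- (6.57%, 4.76 to 8.81) against 16.4% (14.4 to 18.6). A group called on Cxcl10 and Oasl1, interferon-induced genes, took 53 (13.4%) against 15.1%, and 114 (18.3%) against 13.1%. This group rests on 2 genes, and it was also the most frequent myeloid call in single T cells, with 69 of 727 WT and 177 of 1693 Siah2-/- barcodes. Single T cells were given the Folr2 Fcrls call in 5.50% and 2.19%. Of those with a myeloid call, 145 and 354, the Folr2 Fcrls share was 27.6% (20.5 to 35.6) and 10.5% (7.47 to 14.1). These intervals overlapped those of called members, at 31.1% (26.6 to 36.0) and 8.17% (6.15 to 10.6). A dendritic cell state could not be called, because none of its 10 genes was at least 5-fold higher in single macrophages than in single T cells.

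**Figure D3:**
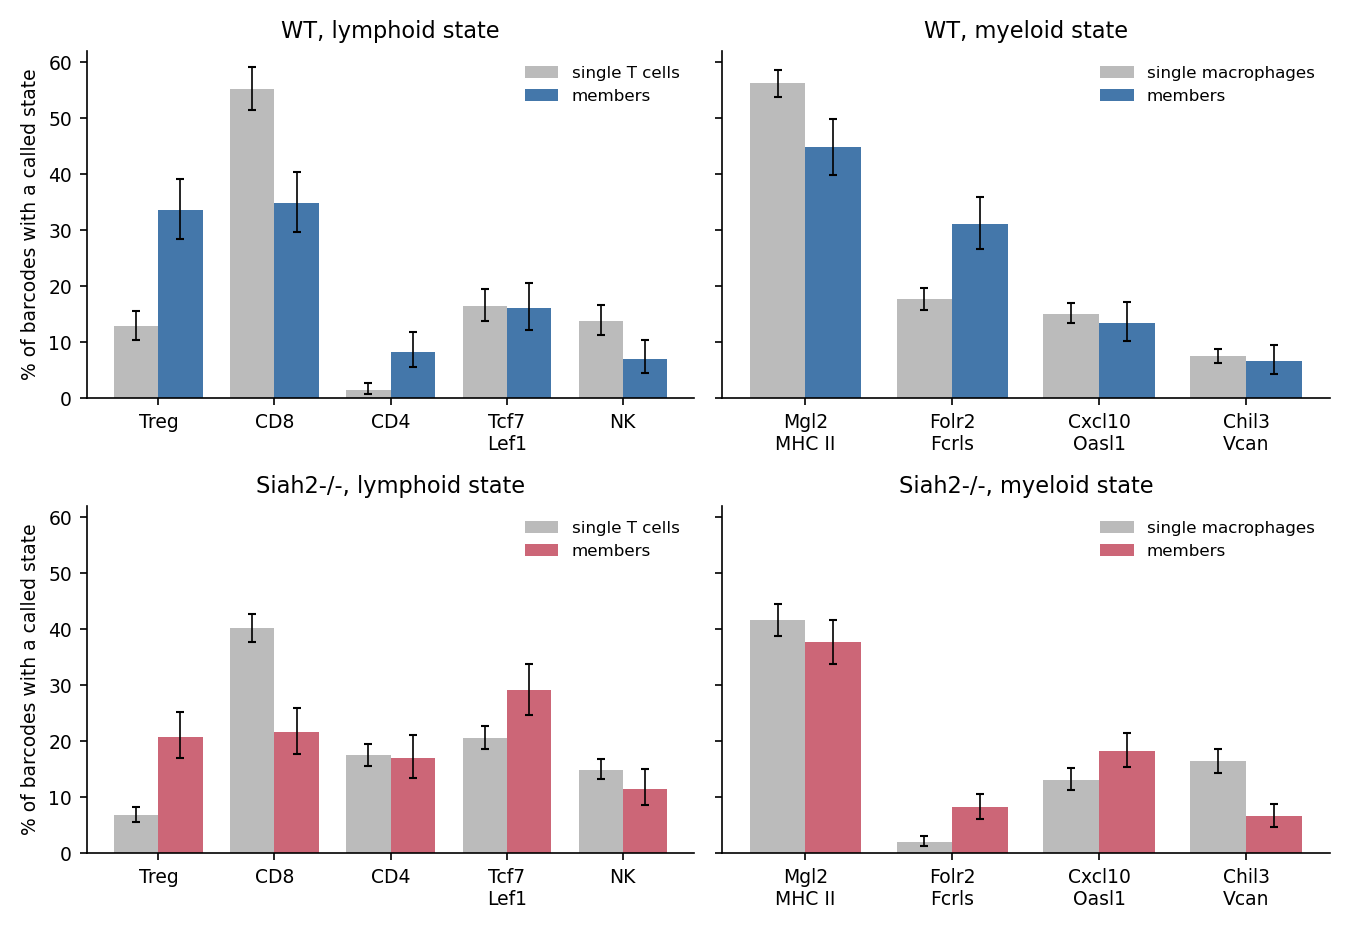
Bars give the percent of barcodes with a called state that took each lymphoid state (left) and myeloid state (right) in WT (top) and Siah2-/- (bottom), grey for singles and colored for members, with 95% Clopper-Pearson intervals as error lines. The myeloid bars do not sum to the whole, because 1 state is not shown. Treg-like calls were 33.6% against 12.8% in WT and 20.8% against 6.82% in Siah2-/-, and Folr2 Fcrls calls 31.1% against 17.6% and 8.17% against 2.07%.

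Folr2, Fcrls and the chemokine gene Ccl8 stood above their single macrophage level in members of both libraries. Folr2 was at 76.3 CPM in WT members against 55.5 CPM in single macrophages and at 13.4 against 6.77 CPM in Siah2-/-. Fcrls was at 194 against 177 CPM and at 9.94 against 4.76 CPM. Ccl8 was at 462 against 362 CPM and at 288 against 172 CPM. Chil3 was below its single macrophage level, at 174 against 306 CPM and at 228 against 659 CPM.

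Within every called state of both libraries, members were deeper than singles, an order that the choice of barcodes favors. WT members with a Folr2 Fcrls call had a median of 18173 UMIs against 12773 in single macrophages of that state, and Siah2-/- members 22195 against 12214. Chil3 Vcan members, the shallowest, had 10832.5 against 7518.5 and 10777 against 6491.5. CD8-like members had 17200 against 9875 and 19118 against 8903, and Treg-like members 15130 against 9124.5 and 15013 against 7063. A share of cycling barcodes (at least 3 UMIs of the cycling list) of 38.5% was found in WT Treg-like members against 59.3% in Treg-like single T cells, and of 25.3% against 17.9% in Siah2-/-. The other called lymphoid states had the same order, with CD8-like calls at 54.9% against 63.1% in WT and 46.5% against 33.1% in Siah2-/-. The limit of 3 UMIs is not scaled to depth and in members also counts cycling RNA of the macrophage.

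The lymphoid and myeloid states of a barcode combined close to the product of their frequencies. Both states were called in 315 WT and 382 Siah2-/- members. In WT, 34 Treg-like members had a Folr2 Fcrls call, where the product of the row and column totals gives 35.0, and 50 had an Mgl2 MHC II call, where it gives 47.2. For CD8-like members the counts were 37 against 35.3 and 50 against 47.7. The Folr2 Fcrls share was 31.8% (23.1 to 41.5) of Treg-like and 34.3% (25.4 to 44.0) of CD8-like WT members. In Siah2-/- 37 CD8-like members had an Mgl2 MHC II call against 31.5, 29 Treg-like members against 30.4 and 12 NK-like members against 15.6. The Mgl2 MHC II share was 44.6% (33.7 to 55.9) of CD8-like and 36.2% (25.8 to 47.8) of Treg-like Siah2-/- members, with overlapping intervals. Among the states described here, no preference of one T cell state for one macrophage state was detectable at these counts.

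**Figure D4:**
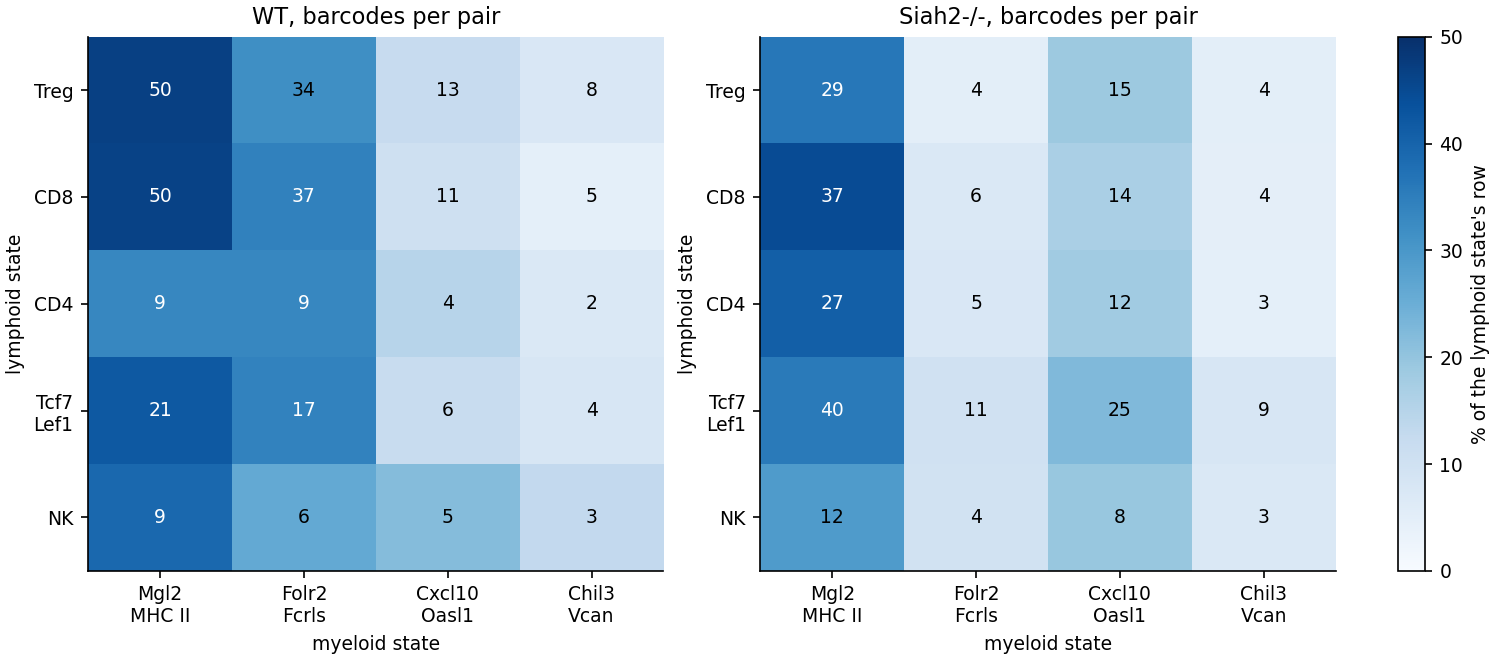
Each cell gives the number of members with a lymphoid state (rows) and a myeloid state (columns), and its color the percent of all members of the lymphoid row, which can have myeloid calls not shown, for WT (315 members) and Siah2-/- (382 members). Mgl2 MHC II was the largest column shown in both libraries, followed by Folr2 Fcrls in WT and by Cxcl10 Oasl1 in Siah2-/-.

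No gene was 1.5-fold outside the single levels in both libraries, but this count depended on the members chosen. At any mixing share, the CPM of a sum lies between the 2 single levels. Of 7950 genes with at least 50 UMIs in the members of each library, 0 (0%) were at least 1.5-fold above the higher single level in both, and of 6661 genes with at least 50 UMIs expected from the lower level, 0 (0%) were at least 1.5-fold below it. In members with a CD3 sum of at least 5, 3 genes were above, Ccl22, Fbxo33 and Pgm2l1, and 1 was below. With 3 UMIs of each marker 6 were above, and without NK-like members and members with stromal UMIs 1 was above and 11 were below. No test across samples was possible, so no count at an unadjusted p can be given. The lower of the 2 library ratios to the higher single level had a median of 0.80 over all genes and was above 1 for 781. The genes nearest to the limit were Pgm2l1 (1.54-fold in WT and 1.48-fold in Siah2-/-), Ccl22 (1.43 and 3.15) and Fbxo33 (1.61 and 1.42). For Ccl22, 1 barcode held 57.5% of the 106 UMIs in WT and 75.9% of the 108 UMIs in Siah2-/-. Pgm2l1 encodes a sugar phosphate synthase and Ccl22 a chemokine of mature dendritic cells that draws Tregs. Among the 15 highest were also Folr2 (1.38 and 1.97) and Npl (1.35 and 1.55), and among the 8 lowest was Sema4a, a semaphorin gene (0.85 and 0.82 of the lower single level).

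A stricter measure, added after the data were seen, set each gene against the single best-fitting mix of both single profiles. The fitted mix held 31.6% T cell RNA in WT and 24.5% in Siah2-/-. Members were at least 1.5-fold above the mix in both libraries for 36 of 7950 genes (0.453%) and at least 1.5-fold below for 21 (0.264%). Treg genes were among the former. Foxp3 was 3.60-fold (3.10 to 4.16) above the mix in WT and 2.77-fold (2.35 to 3.24) in Siah2-/-, Tnfrsf4 2.61-fold and 2.03-fold, Il2ra, the IL2 receptor α chain, 2.03-fold and 1.84-fold, and Ikzf2 2.18-fold and 1.58-fold. Of the Treg list 4 of 7 tested genes and of the Folr2 Fcrls list 3 of 7 were in the 36, with Folr2 at 2.0-fold and 2.60-fold. The Tcf7 Lef1 list had 2 of 6 there, the CD4 list 1 of 3, the dendritic cell list 2 of 4 and the T cell list 0 of 13. The T cell list also lay above the mix in WT, with median ratios of 1.57 and 1.09. Medians were 2.11 and 1.58 for the Treg list, 1.82 and 1.34 for the CD4 list and 1.75 and 1.06 for the Tcf7 Lef1 list. Over all genes they were 1.02 and 1.03. On the other side were 3 granzyme genes, of 9 tested genes of the cytotoxic list, led by Gzmf, chosen after its values were seen, at 0.36 and 0.21 of the mix. The median ratio of that list was 0.98 in WT and 0.76 in Siah2-/-, and 1 barcode held 22.7% and 19.3% of the Gzmf UMIs.

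When the singles were weighted to the states of the members, fewer genes differed from the mix. The genes that called the states, among them Foxp3, Tnfrsf4, Folr2 and Ccl8, are brought toward the member level by the weighting itself. The count was then 9 above (0.113%) and 4 below (0.0503%), of which 6 above and 4 below were shared with the unweighted mix. Foxp3 stood at 1.31-fold and 0.93-fold, Tnfrsf4 at 1.07-fold and 0.93-fold, Folr2 at 1.36-fold and 1.29-fold and Ccl8 at 1.27-fold and 0.81-fold. The genes above it were Plcg1, Pgm2l1, Fam169b, Gramd4, Tnk2, Clk2, Ccl22, Ccl17 and Apod, named here because the count is small and in part chosen after their values were seen. Plcg1, which encodes phospholipase C γ1 of the T cell receptor pathway, was 2.49-fold and 2.19-fold above the weighted mix, with 93 UMIs in 75 WT members and 121 UMIs in 101 Siah2-/- members. Pgm2l1 was 1.77-fold and 1.97-fold above it, with 66 UMIs in 58 members and 72 in 66. Ccl22, Ccl17 and Apod also passed, but 1 barcode held 57.5% of the Ccl22 UMIs in WT and 75.9% in Siah2-/-, 87.9% and 73.7% of those of Ccl17, and 42.2% and 78.2% of those of Apod. Without the barcode with most UMIs of each gene, 27 genes were above the unweighted mix and 3 above the weighted mix, which were Plcg1, Pgm2l1 and Fam169b. Against the weighted mix, the 4 genes below in both libraries were Gzmf (0.47 and 0.35), Gzmd (0.55 and 0.22), the galectin gene Lgals7 (0.58 and 0.62) and the neutrophil chemokine gene Cxcl2 (0.63 and 0.64). Bgn and Prrx1, stromal genes chosen after their values were seen, were below the unweighted mix only. Single T cells carried stromal list UMIs at 784 CPM in WT and 357 CPM in Siah2-/-, against 184 and 97.5 CPM in members and 134 and 38.6 CPM in single macrophages, and their part in these ratios was not tested.

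**Figure D5:**
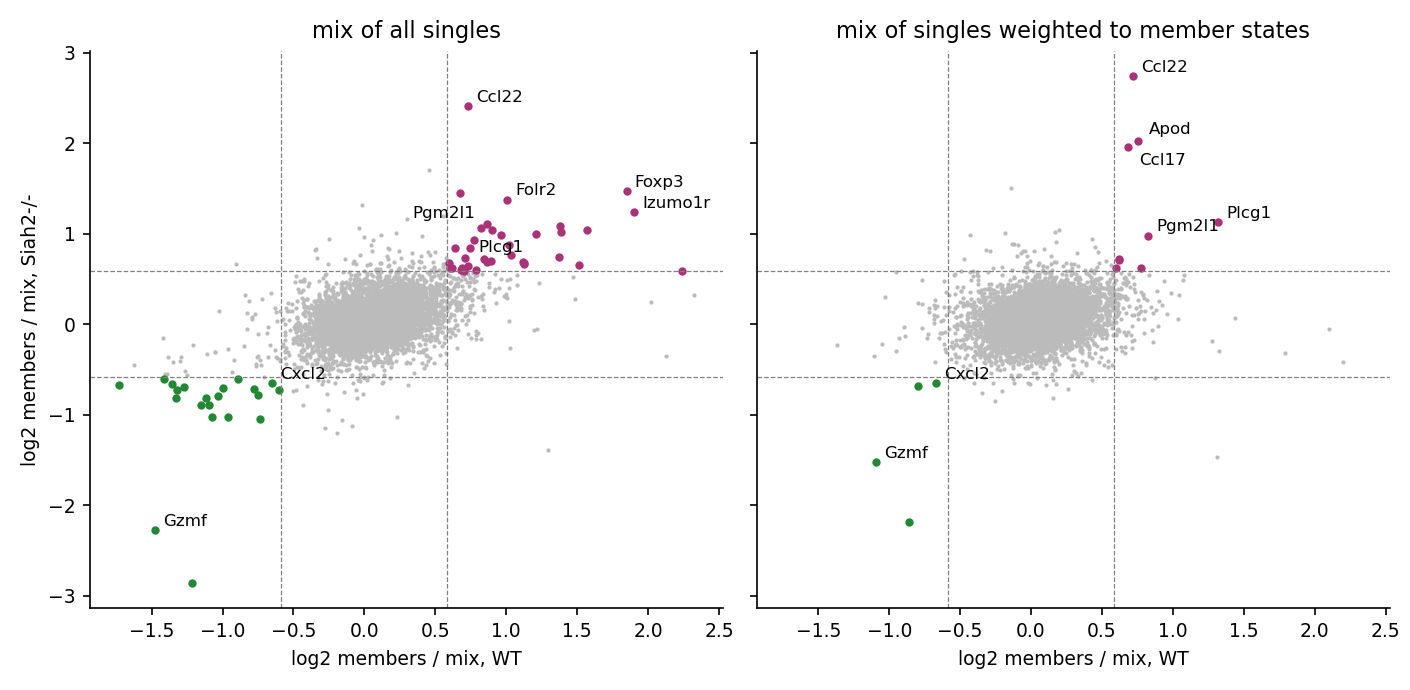
Points are 7950 genes placed by the log2 ratio of members to the best-fitting mix in WT (horizontal) and Siah2-/- (vertical), for the mix of all singles (left) and singles weighted to the states of the members (right), with dashed lines at 1.5-fold. Colored genes passed in both libraries: 36 above and 21 below on the left, 9 and 4 on the right.

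Genes through which T cells and macrophages signal to each other were also set against both single levels and the mix. Of the checkpoint list (12 of 14 genes with enough UMIs), the costimulation list (9 of 13), the adhesion list (12 of 12), the chemokine list (16 of 18) and the cytokine list (19 of 21), 0 genes were 1.5-fold above the higher single level in both libraries, and 3 chemokine genes, Ccl22, Ccl8 and Ccl17, were above it by any amount. Over all 7950 tested genes these counts were 0 and 781. For Ccl17, 1 barcode held 87.9% of the UMIs in WT and 73.7% in Siah2-/-. The median ratios of the lists to the mix, in the same order, were 1.05 and 0.97, 1.41 and 1.05, 1.04 and 0.97, 1.15 and 1.00, and 1.20 and 0.91 in WT and Siah2-/-, against 1.02 and 1.03 over all genes. Against the unweighted mix, 36 of all 7950 genes (0.453%) were 1.5-fold above in both libraries. Of these lists 6 genes were, Tnfrsf4, Slamf1, Ccl8, Ccl22, Il2ra and Il10, of which Ccl22 also passed against the weighted mix. Without the barcode with most UMIs of the gene, 3 of the 6 no longer passed, Ccl22 at 0.70 and 1.28, Il10 at 3.76 and 1.14 and Slamf1 at 1.46 in both. Slamf1 and Il10 were chosen after their values were seen. Tnf, which encodes tumor necrosis factor, stood at 38.6 CPM in WT members against 23.8 CPM in single T cells and 27.4 CPM in single macrophages, but at 35.0 against 41.1 and 25.4 CPM in Siah2-/-. Vcam1, an adhesion ligand of lymphocytes, stood at 77.6 CPM against 44.1 and 89.4 CPM in WT and at 45.4 against 20.3 and 26.1 CPM in Siah2-/-. Il12b, which encodes the IL12 p40 chain, stood at 14.1 against 5.50 and 7.81 CPM in WT and at 4.78 against 1.86 and 1.05 CPM in Siah2-/-, where its 49 UMIs were under the limit of 50. Cd200r1, an inhibitory receptor, stood at 15.7 against 12.5 and 11.9 CPM and at 14.6 against 14.7 and 13.9 CPM. The remaining programs had median ratios to the mix of 1.07 and 0.97 for the interferon γ response, 0.96 and 0.82 for immediate early and T cell receptor activation genes, 0.98 and 0.76 for cytotoxic genes, 1.06 and 1.08 for engulfment and lysosome genes and 0.91 and 0.89 for glycolysis.

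Markers of other cell types were low but present. The NK list summed to 378 CPM in WT members and 681 CPM in Siah2-/- members, against 1603 and 2644 CPM in single T cells and 165 and 293 CPM in single macrophages, with all 10 of its genes detected. The dendritic cell list (11 genes, none at 0) summed to 99.6 and 80.8 CPM, against 143 and 121 CPM and 69.2 and 61.1 CPM. The 4 tested genes of the dendritic cell list had median ratios to the unweighted mix of 1.44 in WT and 1.74 in Siah2-/-. The B cell list (4 of 6 genes in the table, 1 at 0 in each library) summed to 20.5 and 17.7 CPM, the melanocyte lineage list (5 of 7, 3 and 2 at 0) to 12.8 and 7.51 CPM and the endothelial list (4 of 5) to 19.5 and 32.9 CPM. The neutrophil list (5 of 6 genes, 1 at 0 in WT) summed to 22.9 CPM in WT and 120 CPM in Siah2-/-, against 64.0 and 135 CPM in single macrophages.

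Between genotypes, Siah2-/- members were lower in genes of the Folr2 Fcrls state and the cell cycle and higher in genes of glycolysis and the interferon γ response. Of 9830 genes with at least 50 UMIs over both, 226 (2.3%) were at least 2-fold higher in Siah2-/- members and 188 (1.91%) at least 2-fold lower. With members of both libraries weighted to the same 21 joint states, the counts were 234 and 108, so that the share of higher genes among these moved from 54.6% to 68.4%. The counting interval of the log2 ratio lay above 0 for 12.6% and below 0 for 22.5% of genes. The lowest ratios were those of Ccl1 at -5.08 (-5.47 to -4.70), a chemokine gene with 1356 and 60 UMIs of which 1 barcode held 35.0% in WT, Fcrls at -4.29 and the transporter gene Slco2b1 at -4.19 (-6.13 to -2.75). Cbr2 at -3.57 and Igf1 at -2.86, both known from resident-type macrophages, were in the same group of 8. The highest were S100a9 at 6.87 (5.01 to 9.92) with 2 and 350 UMIs and S100a8 at 5.68 (4.69 to 6.90) with 8 and 612 UMIs, alarmin genes of neutrophils and monocytes, followed by Rhov at 3.85 and Inhba at 3.65. Nos2, which encodes inducible nitric oxide synthase, was at 3.54 (2.79 to 4.39). S100a9 was also present in droplets with under 100 UMIs, at 103 CPM in WT and 223 CPM in Siah2-/-, and the part of free RNA in its ratio was not tested.

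By list, all 11 tested genes of the cycling list had intervals below 0, with a median log2 ratio of -0.96. Birc5, a mitotic regulator, stood at 136 CPM in WT and 70.1 CPM in Siah2-/- members, and Ube2c, a mitotic ubiquitin conjugase, at 102 and 40.9 CPM. The same list had a median of -1.24 in single T cells and -1.17 in single macrophages, and of -0.29 in members weighted to the same states. All 13 glycolysis genes had intervals above 0, with a median of 0.55, against 0.23 in single T cells, 0.70 in single macrophages and 0.32 in members weighted to the same states. Pkm, pyruvate kinase, stood at 1122 and 1641 CPM and Aldoa, an aldolase, at 879 and 1384 CPM. Of the interferon γ response list 14 of 16 genes had intervals above 0, with a median of 0.40, against 0.49 in single T cells, 0.46 in single macrophages and 0.18 in members weighted to the same states. All 8 tested genes of the Folr2 Fcrls list had intervals below 0 (median -1.60), with Mrc1 at 102 and 64.0 CPM, and the list median was -2.05 in single macrophages and -1.13 in single T cells. The T cell list had a median of -0.39 in all members and -0.05 with a CD3 sum of at least 5, and the Treg list -0.50 and -0.13. In single T cells the T cell list had a median of 0.49 and the Treg list 0.18, and in single macrophages 0.90 and -0.10. Over all genes the median was -0.08.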

How the data were processed

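Single cell RNA-seq counts were analysed from 2 droplet libraries, 1 from WT and 1 from Siah2-/- hosts. The authors made the deposited counts with the Cell Ranger pipeline against the mouse genome mm10 (GRCm38), as UMIs per gene and barcode, and removed barcodes in the bottom and top 2% of genes per cell and those with over 10% mitochondrial UMIs. No source used here states the version of Cell Ranger. The deposited normalized table holds natural log values scaled to 10000 UMIs, and only its list of barcodes was used. Unfiltered deposited counts served for droplets under 100 UMIs and for barcodes not in the table. No column of other samples was used, and no doublet caller was run, since it would remove the barcodes described.

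Members had a CD3 sum of at least 2 UMIs and at least 2 Csf1r UMIs. The members and the gene lists were chosen with earlier results of these data known. Levels are UMIs summed over barcodes per 1000000 (CPM). States were called by multinomial likelihood over list genes at least 5-fold higher in the own lineage, with profiles from seed barcodes and a posterior of at least 0.9. Some genes and 1 myeloid state, whose barcodes stay in all totals, are not reported here. Because profiles and members come from the same libraries, states are descriptions. Mixes had 1 T cell share per library, fitted by maximum likelihood. With 1 library per genotype, no p-value was computed, and shares have exact Clopper-Pearson intervals, ratios exact binomial or Poisson intervals and medians order-statistic intervals, at 95%. PCR and droplet effects are not covered by them. Genes named are the markers, the 4 genes of each list with most UMIs in members, the 3 genes of each interaction list with the highest ratio, the 15 highest and 8 lowest ratios to the single levels and the 8 highest and lowest ratios between genotypes. Python 3.11.15, numpy 2.4.6, pandas 2.3.3, scipy 1.17.1 and matplotlib 3.10.9 were used, and the code was tested on simulated data. Alternatives covered marker thresholds, thinning to 4000 UMIs, filters, scaling and weighting to states.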

Additional observations from a re-analysis of the deposited data

Results flagged for a closer look

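Barcodes with both marker sets were also found in unfiltered counts outside the table used for the comparisons. Among barcodes with more detected genes than any kept (over 6187 in WT and over 5432 in Siah2-/-), 4 of 97 in WT (4.12%, 1.13 to 10.2) and 18 of 117 in Siah2-/- (15.4%, 9.38 to 23.2) had a CD3 sum and a Csf1r count of at least 2. They drew attention because they lie outside the filtered table, and only the member shares in unfiltered barcodes include them. Their median depth was 62914 and 40428.5 UMIs, and 2 and 15 of them had a CD3 sum of at least 5.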

How the results depend on the processing

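Across the alternative settings, 61 values stayed within their counting interval or kept a count within 1.5 times, 57 moved beyond and 7 turned direction, and of those added after the data were seen (a CD3 sum of at least 5, states on thinned counts and the mixes) 21 stayed, 21 moved and 3 turned. No paired analysis was possible because each genotype has 1 library, and for the same reason no library could be left out. The cause of the changes was not tested. The member share in WT and Siah2-/- was 18.7% and 29.3% with 1 UMI of each marker, 7.27% and 7.26% with 3, 4.93% and 4.20% with 5, 3.29% and 3.21% on thinned counts, 7.63% and 6.89% with a CD3 sum of at least 5, and 4.34% and 7.19% in unfiltered barcodes of at least 1000 UMIs. The log2 ratio of the shares was 0.65, -0.0018, -0.23, -0.037, -0.15 and 0.73 in that order. The depth ratio to the summed medians was 0.822 and 1.02 with 3 UMIs, 0.693 and 0.807 when chosen on thinned counts, and 1.02 in Siah2-/- with a CD3 sum of at least 5. The T cell part was 46.3% and 27.2% without the top gene, 51.4% and 28.9% as a median over genes, 43.0% and 25.2% against singles weighted to states, 50.9% and 29.6% with singles of up to 1 UMI of the other marker, and 55.5% and 40.8% with a CD3 sum of at least 5. The macrophage part was in the same order 72.7% and 80.2%, 72.0% and 82.3%, 70.9% and 81.8%, 75.3% and 82.3%, and 73.2% and 73.5%. By gates, Treg-like WT members were 28.1% and CD8-like members 53.8% and 50.6%. Without the top gene of each list, the Mgl2 MHC II state was 38.3% in WT. Genes above the higher single level were 6 with at least 20 UMIs, 6 with 3 UMIs of each marker, 1 against weighted singles, 1 without NK-like members and members with stromal UMIs, and 3 with a CD3 sum of at least 5. Genes below the lower level were 1 with 20 UMIs, 11 without NK-like and stromal members and 1 with a CD3 sum of at least 5. Against mixes, genes above were 36 and 9 (weighted), 44 and 8 (weighted) with a CD3 sum of at least 5, and 27 and 3 (weighted) without the top barcode, and genes below were 21, 4, 4 and 4. Genes 2-fold higher and lower between genotypes were 357 and 365 with at least 20 UMIs and 147 and 81 on thinned counts, with 108 lower in state-weighted members and 114 lower with 3 UMIs. With median-of-ratios scaling, 265 were higher and 157 lower, so that the share of higher genes was 62.8% against 54.6%, and the shares were 61.1% with 3 UMIs and 64.5% on thinned counts. List medians were 0.63 (glycolysis), 0.16 (macrophage) and 0.48 (Mgl2 MHC II) with that scaling. State-weighted they were -0.29 (cycling), 0.18 (interferon γ response), 0.32 (glycolysis), 0.042 (T cell), -0.10 (macrophage) and 0.021 (Mgl2 MHC II). With 3 UMIs they were -0.79 (cycling), -0.014 (macrophage) and 0.26 (Mgl2 MHC II), on thinned counts 0.31 (Mgl2 MHC II), and with a CD3 sum of at least 5 they were 0.47 (glycolysis), -0.047 (T cell), -0.11 (macrophage) and 0.18 (Mgl2 MHC II).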
